A study of Zea mays with 10 samples.

Results

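Stems of the maize inbred lines F98902 and Cm484 were compared on the Affymetrix maize array, with 2 arrays for each line. Maize (Zea mays) line F98902 was derived from Iodent material and is described in the labels as a Dent type, whereas Cm484 comes from 200-2-1 and has Flint-Dent grain. One array stands for a pool of 5 untreated plants, and the lines were sown and harvested on common dates. Line was the only biological factor that differed by label, and each line stands for 1 genotype. The labels also give unequal amounts of RNA for the pools, listed below. The whole series has 10 arrays, 2 each for these lines and for F2 (Flint, from lacaune), F7025 (Flint-Dent, from IodentXF113bm3) and F7033 (Flint-Dent, from (LorenaXF252)XF252). Probe sets were kept where the log2 signal reached 4 on at least 2 of the 4 arrays of F98902 and Cm484, which left 10560 of 17555 probe sets other than controls. The second-highest of the 4 values was 4.0004 for the probe set just inside this limit and 3.9974 for the one just outside. Among the kept probe sets, 928 named 1 gene in the annotation used, for 781 genes in all, of which 686 had a readable symbol.

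The series asks how the cell walls of maize stems vary among lines that differ in how well ruminants can digest them. Stem walls are built from cellulose made by cellulose synthases at the plasma membrane, a xylan-rich matrix made in the Golgi, structural proteins, and lignin polymerised from phenylpropanoid alcohols. Young stem tissue elongates with the help of expansins, and older tissue deposits a secondary wall through a separate set of cellulose synthases while it lignifies.

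F98902 and Cm484 differed in a large share of what the array measured, in both directions. Limma with Benjamini-Hochberg adjustment called 4068 of the 10560 kept probe sets at an adjusted p under 0.05, which is 38.5%. Of these, 1984 were higher in F98902 (18.8% of those tested) and 2084 were lower (19.7%). The filter used the same arrays, and 354 kept probe sets were under the level on both arrays of Cm484 alone, 339 of them called. Another 301 were under it on both arrays of F98902 alone, 279 of them called. With the level required on all 4 arrays, 3218 of 9557 probe sets were called (33.7%). Among the 781 annotated genes, each read by its brightest kept probe set, 323 were called (41.4%), with 150 higher in F98902 (19.2%) and 173 lower (22.2%). The median log2 difference, F98902 minus Cm484, was -0.04 over probe sets and -0.05 over genes. The called differences were at least 1 log2 unit for 161 genes, and at least 3 log2 units for 13 genes that were higher and 12 that were lower. Every called probe set had both arrays of one line above both arrays of the other, but so had 69.4% of all kept probe sets. The probe set count was 2631 without pool 1 of Cm484 and 1928 without the 3 arrays of least RNA. With only 2 pools a line, 196 of the 323 gene calls were also made in each of the 4 fits that left out 1 array of the pair. In bulk tissue, fewer cells of a type and less RNA per cell cannot be told apart in any of these differences.

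**Figure D1:**
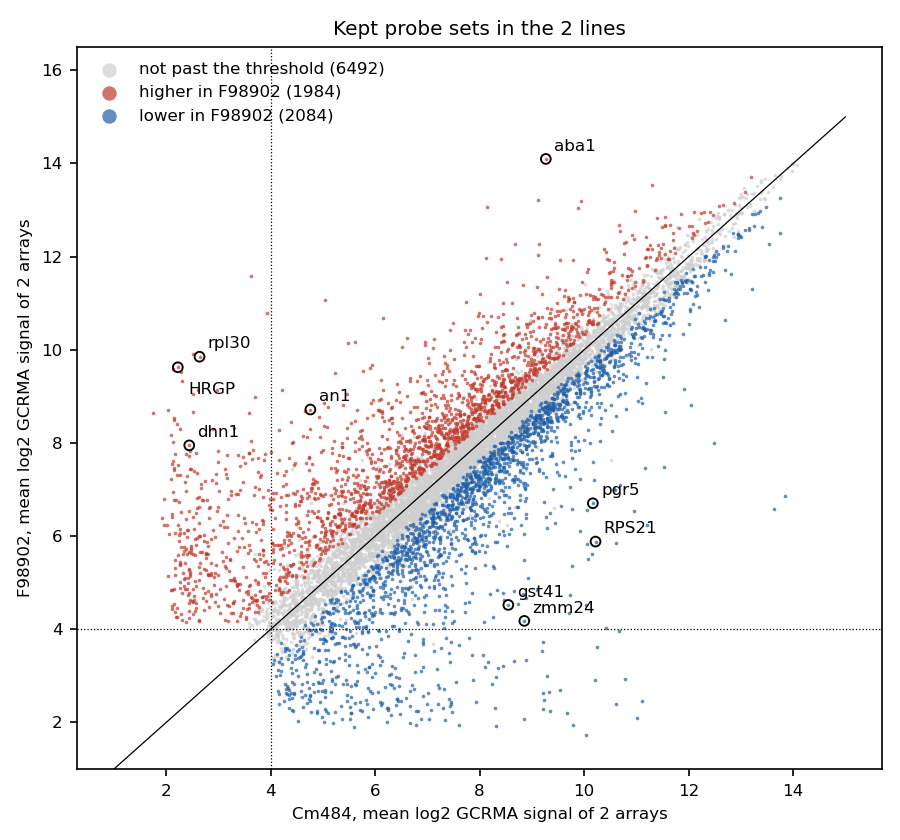
Mean log2 signal of the 2 F98902 arrays against that of the 2 Cm484 arrays for the 10560 kept probe sets, with calls in colour, the diagonal as a solid line and the level of 4 as dotted lines. Calls lie on both sides of the diagonal, 1984 above it and 2084 below it, and HRGP, rpl30 and dhn1 sit at the upper left, bright in F98902 and under 4 in Cm484.

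The arrays carried the transcripts of lignifying green stem. All 7 markers of lignifying stem (among them the secondary wall synthases cesa10, cesa11 and CesA12 and the cinnamyl alcohol dehydrogenase gene BM1) read between 9.00 and 13.42 on the 4 arrays. Of 13 green tissue markers, 12 were at or above 4 on all 4 arrays and 1 was under it on all 4. The pollen markers mgs1 and mgs2 and the root markers nas1 and nas2 stayed between 2.02 and 2.54, and 9 of 11 seed markers were under 4 on every array. The 2 pools of F98902 differed more than those of Cm484. The SD of pool 2 minus pool 1 over the kept probe sets was 0.588 in F98902 and 0.342 in Cm484, against 0.267 to 0.438 in the other 3 lines. Between the pools, 6.09% of kept probe sets differed by over 1 log2 unit in F98902 and 1.72% in Cm484. The labels give 70 µg of RNA for pool 1 of F98902 and 20 µg for pool 2, and 90 µg and 20 µg for the pools of Cm484; the part of RNA amount in the results was not tested.

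The 12 genes with a readable symbol that exceeded Cm484 most in F98902 were led by a wall glycoprotein, a ribosomal protein and genes known from drying or abscisic acid. HRGP, which encodes a hydroxyproline-rich structural glycoprotein of the wall, read 7.52 and 11.73 in F98902 and 2.24 and 2.21 in Cm484. Its signal was thus above the level on both F98902 pools, far apart there, and at the floor in Cm484. The difference was at least 49.3-fold (limma log2 difference 7.40 ± 1.05 SE, adjusted p = 0.000808), and both HRGP probe sets were called higher. This SE draws on the spread in all lines, whereas the 2 F98902 pools alone had an SD of 2.98. In the limma fit with only the 4 arrays, the adjusted p of HRGP was 0.0228. The 6 arrays of the other lines read only 2.22 to 2.26. For rpl30, a protein of the large ribosomal subunit, the signals were 10.14 and 9.56 in F98902 and 2.68 and 2.60 in Cm484. The other 3 lines lay at 8.26 to 10.17, so that Cm484 stood apart, at least 57.7-fold below F98902 (adjusted p = 7.58e-08). Whether the probes match the alleles of every line equally was not tested, for rpl30 or for any other gene, so a reading at the floor in 1 line is a low signal and not a measured lack of transcript.

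Dehydration genes followed. dhn1, the dehydrin also called rab17 that accumulates in drying and abscisic acid-treated maize tissue, read 7.59 and 8.31 in F98902 against 2.54 and 2.35 in Cm484. That is at least 15.4-fold (adjusted p = 3.22e-05), and the other lines did not pass 3.93. aba1, listed with the synonym asr1 for a gene family named after abscisic acid, stress and ripening, read 14.04 and 14.16 in F98902 and 9.89 and 8.65 in Cm484. Both lines lay outside the range of the other lines, 10.74 to 13.96, on opposite sides, and the difference was 28.5-fold (4.83 ± 0.32 SE, adjusted p = 1.06e-05) with both probe sets called. The α-expansin gene expA4 read 5.05 and 8.50 in F98902 and 2.20 and 2.18 in Cm484, at least 6.86-fold higher (adjusted p = 0.00868). expA4 had an adjusted p of 0.0467 in the limma fit with only the 4 arrays. It did not pass the threshold without the 3 arrays of least RNA (adjusted p = 0.145).

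The other members of this group belong to several pathways. an1, the ent-copalyl diphosphate synthase of the first committed step toward gibberellins, read 8.86 and 8.58 against 4.43 and 5.09, a 15.5-fold difference (adjusted p = 7.09e-06). opr1, of the 12-oxophytodienoate reductase family, read 6.82 and 8.44 against 3.86 and 3.90 and was at least 12.4-fold higher (adjusted p = 0.000361). PPCK1, the kinase that phosphorylates phosphoenolpyruvate carboxylase, read 7.02 and 7.29 against 3.32 and 3.61, and was at least 8.91-fold higher. In each of these 3 genes the F98902 arrays also lay above all arrays of the other 3 lines. a2, which encodes the anthocyanidin synthase of the anthocyanin pathway, read 7.16 and 7.996 against 4.42 and 4.92, 7.51-fold higher (adjusted p = 0.000191). piip2, mfs2 and ERF1 completed the 12, at least 6.88-fold, at least 2.82-fold and 9.05-fold higher (adjusted p = 0.00137, 2.22e-06 and 0.0049). The order of the 12 follows the fitted log2 differences, which are not exact where 1 line was under the level.

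The 12 genes that were furthest below Cm484 in F98902 held a MADS-box gene, a ribosomal protein, glutathione transferases and genes of defence and photosynthesis. zmm24, a MADS-box transcription factor gene, read 4.41 and 3.95 in F98902 and 8.85 and 8.86 in Cm484. The other lines lay between, at 5.50 to 6.94, and the difference was 25.5-fold (-4.67 ± 0.27 SE, adjusted p = 5.04e-06). RPS21, of the small ribosomal subunit, read 5.91 and 5.86 against 10.11 and 10.33, 20.2-fold lower in F98902 (adjusted p = 8.91e-07). The glutathione transferase gene gst41 read 4.53 and 4.52 against 8.47 and 8.63, 16.3-fold lower, and GST38 read 2.91 and 2.98 against 6.37 and 6.52, at least 5.46-fold lower. Agreement between the pools was close in both lines for these 2 genes.

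The same group held genes of defence, photosynthesis and flavonoids. glu1, the β-glucosidase that frees toxic benzoxazinoids from their stored glucosides, read 1.95 and 5.24 in F98902 and 7.17 and 7.36 in Cm484. This at least 9.64-fold difference (adjusted p = 0.0326) was the only one of the 24 genes that lost its call when single arrays were left out, which were either Cm484 pool or pool 1 of F98902. It did not pass without the 3 arrays of least RNA either (adjusted p = 0.0722). The gene listed as cyclotide, named for a class of small cyclic defence peptides, read 2.46 and 2.41 against 5.93 and 6.26 (adjusted p = 3.14e-06). pgr5, needed in Arabidopsis for cyclic electron flow around photosystem I, read 7.03 and 6.38 against 10.39 and 9.94, 11.0-fold lower, with both probe sets called (adjusted p = 2.05e-05). fht1, the flavanone 3-hydroxylase of the flavonoid pathway, read 2.31 and 2.34 in F98902 and 5.01 and 6.03 in Cm484, which alone among the 5 lines was above the level. The remaining genes were SE1A, the replication clamp gene pcna2, the small heat shock protein gene hsp18f and the tonoplast aquaporin gene TIP2-3, which were at least 8.70-fold, 6.79-fold, 7.58-fold and 2.28-fold lower in F98902, where their means were under the level.

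**Figure D2:**
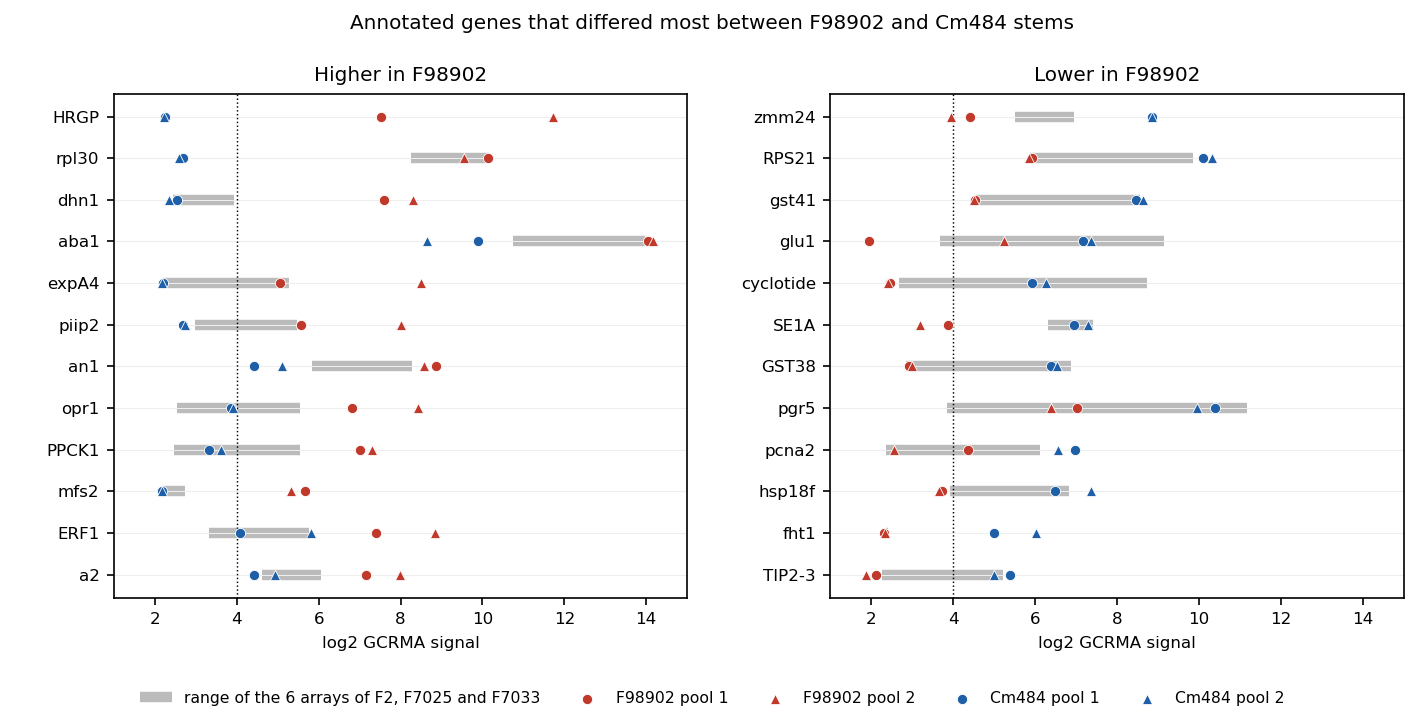
Log2 signal on each of the 4 arrays for the 12 annotated genes most above (left) and most below (right) Cm484 in F98902, with the range of the 6 arrays of the other 3 lines as grey bars and the level of 4 as a dotted line. Circles and triangles are pools 1 and 2. The 24 genes were chosen on the condition that the 2 lines do not overlap, which 70.2% of all annotated genes met. The 2 F98902 pools lie far apart in HRGP and glu1.

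Enzymes that make lignin units were higher in F98902 for most members. Of 4 kept genes of monolignol synthesis, 3 were higher, none was lower and 1 did not pass, with a median log2 difference of 0.62, beside 19.2% of all annotated genes that were higher. With 4 genes this share says little about the group. cncr1, a cinnamoyl-CoA reductase that commits phenylpropanoids to lignin, read 12.15 and 12.42 in F98902 and 10.57 and 10.96 in Cm484, 2.86-fold higher (1.52 ± 0.19 SE, adjusted p = 0.000381). 4CL, the 4-coumarate:CoA ligase gene of the step before, read 11.91 and 12.42 against 11.06 and 11.40, 1.91-fold higher (adjusted p = 0.00698). PAL1, the phenylalanine ammonia-lyase gene at the entry of the pathway, read 13.33 and 13.42 against 13.01 and 13.14, 1.24-fold higher (adjusted p = 0.0296). Of these calls only that of cncr1 held in all 4 fits that left out 1 array. BM1, the cinnamyl alcohol dehydrogenase of the last step, read 12.06 and 12.27 against 12.19 and 12.14 (adjusted p = 0.991). The laccase gene LAC1 and the peroxidase gene PER42, whose enzyme classes polymerise lignin, had log2 differences of 0.04 and -0.69 and did not pass.

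Cellulose synthase genes differed in both directions. Of 14 kept CesA and COBRA-like genes, 3 were higher in F98902, 2 were lower and 9 did not pass, with a median of 0.08. The called share, 35.7%, was near the 41.4% of all annotated genes. The secondary wall synthase gene cesa10 read 10.52 and 11.20 in F98902 and 9.49 and 9.71 in Cm484, 2.40-fold higher (adjusted p = 0.006). cesa11, of the same secondary wall class, read 10.25 and 10.91 against 9.76 and 9.61, 1.86-fold higher (adjusted p = 0.0309), a call lost in 3 of the 4 fits without 1 array. The third of that class, CesA12, read 10.58 and 10.89 against 10.84 and 10.63, a log2 difference of 0.00 (adjusted p = 0.999). CesA-4 was 2.55-fold higher (1.35 ± 0.29 SE, adjusted p = 0.00652, both probe sets). CesA-3 read 7.88 and 7.97 against 9.09 and 9.03, 2.19-fold lower (adjusted p = 8.19e-05), and CesA-6 read 8.97 and 9.47 against 10.06 and 10.43, 2.03-fold lower (adjusted p = 0.00614). bk2, a COBRA-like gene whose mutant has brittle stalks, read 9.14 and 10.22 against 9.05 and 9.00 and did not pass (adjusted p = 0.176). The 7 markers of lignifying stem, which include several of these genes, summed to 77.81 and 81.33 log2 units in F98902 and 75.38 and 75.63 in Cm484.

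Enzymes of matrix polysaccharides were few on the list. RGP, a reversibly glycosylated polypeptide that interconverts forms of UDP-arabinose, read 12.13 and 13.14 in F98902 against 11.38 and 11.60, 2.21-fold higher (adjusted p = 0.018, both probe sets). pglcat8 was 2.33-fold higher (adjusted p = 0.00264) with all 3 of its probe sets called. pglcat6 was 1.31-fold lower (adjusted p = 0.0167), so that 2 of the 3 kept genes were higher and 1 was lower. All 3 were called, beside 41.4% of all annotated genes, but with 3 genes this share says little. Of these calls only that of pglcat8 held in all 4 fits without 1 array.

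**Figure D3:**
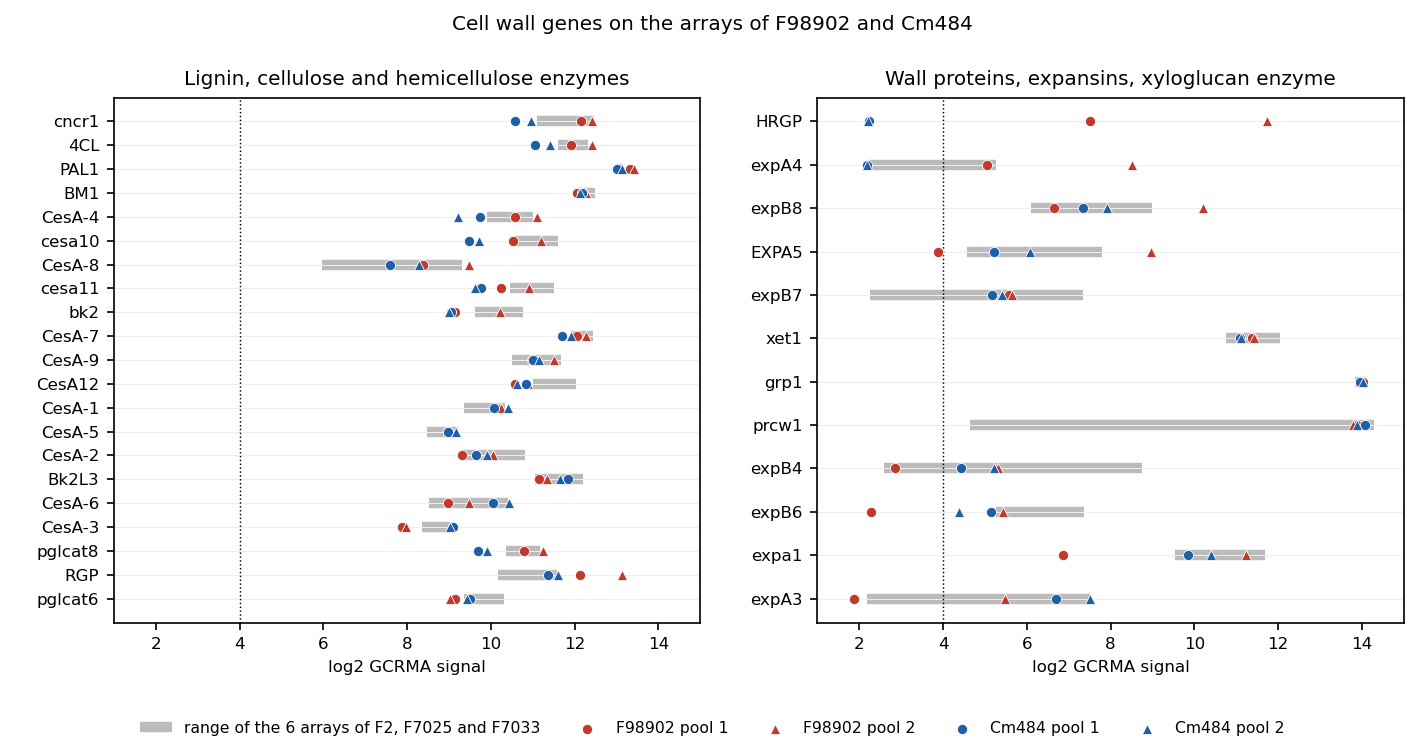
Log2 signal of cell wall genes on the 4 arrays, with the range of the 6 arrays of the other 3 lines in grey and the level of 4 as a dotted line. The enzymes at left read near or above 8 in both lines, whereas at right most expansins are low in F98902 pool 1 (circles) and high in pool 2 (triangles), with Cm484 between the pools or overlapping them for 5 of the 8.

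Among 12 kept genes of wall proteins, expansins and a xyloglucan enzyme, HRGP and expA4 were higher in F98902 and the other 10 did not pass. The called share was 16.7%, below the 41.4% of all annotated genes. The 8 kept expansins, which loosen growing walls, set the 2 F98902 pools apart. All 8 read higher in pool 2 than in pool 1, by 0.08 to 5.10 log2 units with a median of 3.51, whereas the same difference in Cm484 ran from -0.75 to 0.87. expa1 read 6.88 and 11.25 in F98902, on either side of the 9.85 and 10.40 of Cm484 (adjusted p = 0.489). EXPA5 read 3.87 and 8.98 around 5.21 and 6.08 (adjusted p = 0.7), and expB8 read 6.64 and 10.20 around 7.34 and 7.90 (adjusted p = 0.595). expA3 was low in both pools, at 1.87 and 5.49 against 6.70 and 7.52, yet did not pass (adjusted p = 0.0633). The 25 markers of young tissue summed to 123.44 and 158.96 in the F98902 pools and to 133.27 and 134.79 in Cm484. They include HRGP, expA4, xet1, the other kept expansins and several cell cycle genes, and 7 of the 25 were under 4 on all 4 arrays. The cell cycle and histone markers did not rise in F98902 pool 2. From pool 1 to pool 2, cdc2 read 8.66 and 8.34, cycD2 9.19 and 9.09, and PCNA 6.31 and 6.32. The histone genes his1a, H1 and his2b5 read 10.74 and 10.75, 4.295 and 4.02, and 3.99 and 3.87. The part of young tissue in the HRGP and expA4 differences was not tested. The xyloglucan endotransglycosylase gene xet1 read 11.39 and 11.42 against 11.09 and 11.11 (adjusted p = 0.26), and the glycine-rich protein gene grp1 was among the least different genes of all, at 14.03 and 13.96 against 13.97 and 14.03.

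**Figure D4:**
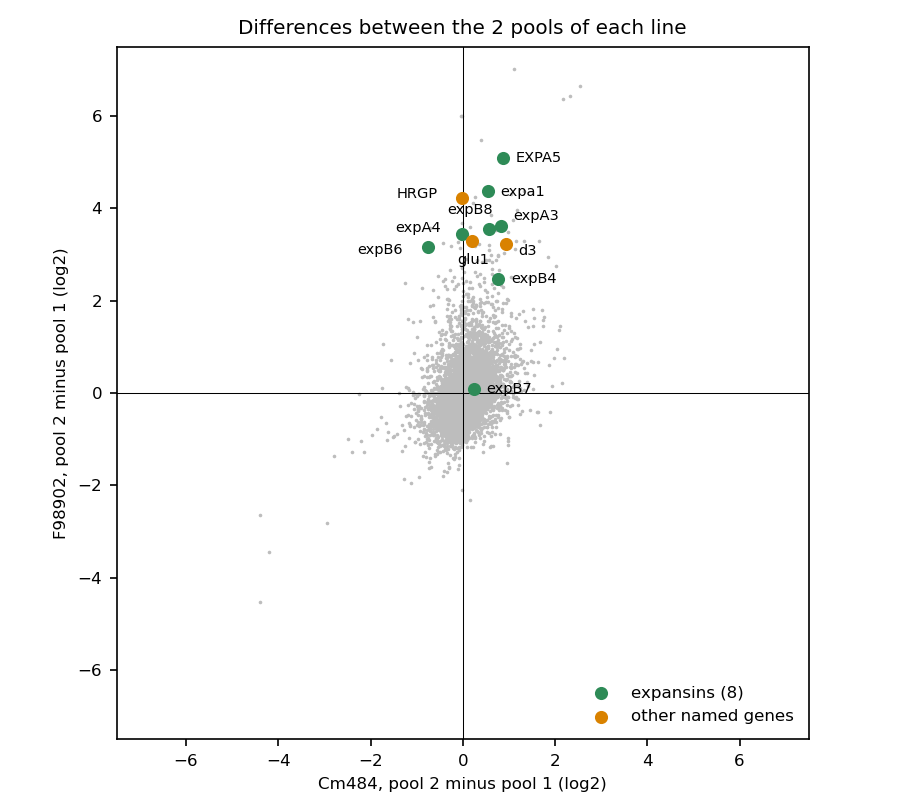
Pool 2 minus pool 1 on the log2 scale in F98902 (vertical) against the same in Cm484 (horizontal) for the 10560 kept probe sets, with 8 expansins in green and HRGP, glu1 and d3, picked for display after their values were seen, in orange. The cloud is taller than wide, and 7 of the 8 expansins lie more than 2 log2 units above 0 in F98902 but within 1 log2 unit of 0 in Cm484.

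Hormone genes differed both ways. Of 23 kept genes of hormone synthesis and response, 7 were higher in F98902, 7 were lower and 9 did not pass, a called share of 60.9% beside 41.4% of all annotated genes. Of these calls, 5 of the higher and 6 of the lower held in all 4 fits without 1 array. Beside an1, vp14, the 9-cis-epoxycarotenoid dioxygenase that cleaves carotenoids toward abscisic acid, read 6.57 and 7.20 in F98902 and 4.02 and 4.66 in Cm484. It was 5.84-fold higher (adjusted p = 0.000338). The cytokinin oxidase genes cko2 and cko3, whose products degrade cytokinins, were 4.53-fold and 4.03-fold higher (adjusted p = 0.00312 and 0.00281). cko2 read 10.14 and 9.63 against 7.21 and 8.20, and cko3 read 8.98 and 8.37 against 6.33 and 7.00.

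Cytokinin response regulators, which are phosphorylated after cytokinin is sensed, were lower for 4 members and higher for 1. crr1 read 4.01 and 4.83 in F98902 and 6.94 and 7.35 in Cm484, 6.59-fold lower (adjusted p = 0.000479). crr2 read 4.20 and 4.10 against 6.37 and 7.22, 6.27-fold lower (adjusted p = 0.000744). RR7 was 4.06-fold lower and RR5 2.25-fold lower (adjusted p = 0.00137 and 0.0198), RR4 was at least 1.30-fold higher (adjusted p = 0.0232), and RR6, RR8, RR9 and RR10 did not pass. The call of RR5 was lost in 3 of the 4 fits without 1 array, and that of RR4 without either Cm484 pool. Of the histidine kinase genes that sense cytokinin, HK1 and hk3 were 1.94-fold and 2.19-fold lower, and hk2 was 2.18-fold higher. The auxin-binding protein genes abp1 and abp4 also differed in opposite directions, by 0.73 and -0.85 log2 units (adjusted p = 0.0325 and 0.00134). The call of abp1 was lost without either Cm484 pool and without pool 1 of F98902, whereas that of abp4 held in all 4 fits. d3, a cytochrome P450 of gibberellin synthesis, read 2.75 and 5.98 against 3.65 and 4.58 and did not pass (adjusted p = 0.841), but it passed in opposite directions without pool 1 and without pool 2 of F98902 (1.86 and -1.36 log2).

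Of 9 kept genes of sucrose metabolism, 4 were higher in F98902 and none was lower, with a median of 0.64. The called share, 44.4%, was near the 41.4% of all annotated genes, and each of the 4 calls held in every fit that left out 1 array. ivr2, a vacuolar invertase, read 10.13 and 10.57 in F98902 and 7.54 and 8.01 in Cm484, 5.95-fold higher (2.57 ± 0.24 SE, adjusted p = 7.43e-05). incw1, a cell wall invertase, read 9.06 and 10.14 against 6.94 and 7.79, 4.69-fold higher (adjusted p = 0.00183), and the F98902 arrays were above all other lines. The sucrose synthase genes sus2 and sh1 were 3.03-fold and 1.56-fold higher (adjusted p = 0.00316 and 0.00503). The sucrose transporter gene sut1 read 10.68 and 11.16 against 9.89 and 10.67 and did not pass (adjusted p = 0.0661). All 9 genes read higher in pool 2 than in pool 1 in F98902 and in Cm484 alike. Of 8 starch genes, the isoamylases iso2 and iso3, which debranch glucans, were lower in F98902, with log2 differences of -0.75 and -0.91. The other 6 did not pass, so that 25% were called beside 41.4% of all annotated genes.

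Nitrogen and central carbon genes gave 6 higher, 5 lower and 11 not past the threshold among 22, so that 50% were called beside 41.4% of all annotated genes. The nitrite reductase gene NIR was 1.85-fold higher in F98902 (adjusted p = 0.0155), whereas NNR1, a nitrate reductase gene for the preceding step, was 2.19-fold lower, at 6.70 and 6.76 against 7.97 and 7.75 (adjusted p = 0.00409). Among glutamine synthetase genes, GLN6 was 1.84-fold higher, while gln3 read 5.25 and 5.56 against 6.94 and 7.43 and was 3.43-fold lower (adjusted p = 0.000251). The alcohol dehydrogenase genes adh1 and adh2 were 1.56-fold and 1.66-fold higher. None of the 6 calls for higher genes on this list held in all 4 fits that left out 1 array, and 2 of the 5 for lower genes did.

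Defence genes differed in both directions. Of 25 kept genes of defence, jasmonate and benzoxazinoids, 4 were higher, 10 were lower and 11 did not pass, although the median was 0.10. Without pool 2 of F98902 that median was -0.47. The list's called share was 56%, beside 41.4% of all annotated genes, of which 22.2% were lower. Of the calls, 3 of the higher and 8 of the lower held in all 4 fits without 1 array. PR-5, a thaumatin-like pathogenesis-related protein, read 10.57 and 10.42 in F98902 and 8.78 and 8.03 in Cm484, 4.25-fold higher (adjusted p = 0.000241). PR-1 was 3.42-fold higher (adjusted p = 0.017), a call lost without pool 2 of Cm484 and without pool 1 of F98902, and the lipoxygenase gene lox1 was 2.43-fold higher (adjusted p = 0.00272). In contrast bx6, an enzyme of benzoxazinoid synthesis, read 8.76 and 8.05 against 10.37 and 10.24, 3.72-fold lower with both probe sets called (adjusted p = 0.000165). bx1, which starts that pathway, read 6.86 and 6.34 against 6.53 and 4.75 and did not pass (adjusted p = 0.278). The cysteine protease inhibitor gene cc7 was 2.81-fold lower and a second cystatin, LOC100101525, 2.29-fold lower. opr5 and opr7, relatives of opr1, were 1.89-fold and 2.14-fold lower (adjusted p = 0.00857 and 0.00308), the opposite of opr1, and opr8 did not pass (adjusted p = 0.102).

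Glutathione transferases, which conjugate glutathione to foreign and reactive compounds, split evenly. The annotation held 31 of them, and 12 were kept. Of these 12 kept genes, 5 were higher, 5 were lower and 2 did not pass. Thus 83.3% were called, beside 41.4% of all annotated genes. The calls of GST3, gst5 and gst18 were lost in 1 or more fits without 1 array. gst19 read 10.41 and 9.92 in F98902 and 7.76 and 7.64 in Cm484, 5.51-fold higher (adjusted p = 1.11e-05). gst30 read 8.49 and 8.57 against 6.04 and 6.60, 4.64-fold higher and above all other lines. Beside gst41 and GST38, GST39 and gst2 were 2.59-fold and 2.78-fold lower (adjusted p = 0.000238 and 0.00315).

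Photosynthesis genes were lower in F98902 for 8 members. Of 17 kept genes, 8 were lower, 2 were higher and 7 did not pass, with a median of -0.35 that was -0.17 without pool 2 of F98902. The called share was 58.8%, beside 41.4% of all annotated genes, of which 22.2% were lower. Of the 8 lower calls, 5 held in all 4 fits without 1 array. fdx2, a ferredoxin, read 5.86 and 5.71 in F98902 and 8.56 and 8.48 in Cm484, 6.64-fold lower (adjusted p = 7.03e-05). Rca, the activase of Rubisco, read 8.88 and 8.55 against 10.32 and 10.49, 3.23-fold lower (adjusted p = 0.000359). lhcb5, a chlorophyll-binding antenna protein, was 2.74-fold lower, and rbcS, the Rubisco small subunit, read 12.56 and 12.59 against 13.07 and 13.25, 1.50-fold lower (adjusted p = 0.00786). The photosystem I subunit gene psad1 and the ferredoxin gene FDX6 were higher, by 0.81 and 0.61 log2 units, and neither call held in all 4 fits without 1 array. The C4 genes pdk1 and pep1 did not pass. Over the 13 green tissue markers, the summed log2 signal was 136.76 and 135.32 in F98902 and 136.15 and 138.99 in Cm484, so the lines overlapped in this sum.

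Genes of the cell cycle and chromatin were lower in F98902 for most members. Of 16 kept genes, 11 were lower, 3 were higher and 2 did not pass, with a median of -0.60 beside -0.05 over all genes. Called members made up 87.5% of this list, beside 41.4% of all annotated genes, of which 22.2% were lower. pcna2 read 4.35 and 2.56 in F98902 and 6.98 and 6.55 in Cm484, at least 6.79-fold lower (adjusted p = 0.00169), and its paralogue PCNA read 6.31 and 6.32 against 6.99 and 6.97, 1.59-fold lower (adjusted p = 0.0175). MCM6, of the helicase that opens replicating DNA, read 4.19 and 3.14 against 5.92 and 5.12, at least 2.87-fold lower (adjusted p = 0.00931). Its other probe set did not pass (-0.94 log2, adjusted p = 0.0606). The core histone gene his2b5 was at least 3.38-fold lower, the linker histone gene H1 was 2.82-fold lower, and the high-mobility-group gene nfd101 was 4.27-fold lower. The cyclin-dependent kinase gene cdc2 was 1.49-fold lower (adjusted p = 0.0202), while its other probe set did not pass (-0.90 log2, adjusted p = 0.0712). Against this, the D-type cyclin gene cycD2 read 9.19 and 9.09 against 8.28 and 8.57, 1.64-fold higher (adjusted p = 0.00303), and his1a was 1.38-fold higher. Of the 11 lower calls, 4 held in every fit that left out 1 array. The calls of PCNA, MCM6 and cdc2 were not among these 4. Tubulins, the subunits of microtubules, gave 6 lower, 1 higher and 5 not past the threshold among 12 kept genes. Their called share was 58.3%, beside 41.4% of all annotated genes. Of the 6 lower calls, 2 held in all 4 fits without 1 array. tub6 read 9.41 and 9.52 against 10.24 and 10.44, 1.84-fold lower (adjusted p = 0.00127), with 3 of its 4 probe sets called. tub5 read 11.87 and 11.99 against 11.43 and 11.30, 1.48-fold higher (adjusted p = 0.00688), while its other probe set did not pass (adjusted p = 0.131).

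Regulators of shoot and flower development gave 3 higher and 3 lower among 16, so that 37.5% were called, near the 41.4% of all annotated genes. Beside zmm24, the MADS-box gene zap1 read 9.62 and 9.75 in F98902 and 10.65 and 10.85 in Cm484, 2.09-fold lower (adjusted p = 0.000324), and the meristem homeobox gene kn1 was 1.22-fold lower (adjusted p = 0.0465). In 3 of the 4 fits without 1 array kn1 did not pass. lg3, another KNOTTED-class gene, read 7.57 and 7.41 against 6.52 and 6.40, 2.05-fold higher (adjusted p = 0.00119). MYB1_2, the gene also called myb31 and known as a repressor of lignin genes, read 6.04 and 6.16 against 4.99 and 5.36, 1.90-fold higher (adjusted p = 0.0113). Its call was lost in 2 of the 4 fits without 1 array. MYB38_1, also called myb42, read 6.15 and 5.79 against 6.14 and 6.56 and did not pass (adjusted p = 0.275).

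Water and solute channels exchanged members between the lines. Of 7 plasma membrane aquaporins, 2 were higher and 2 were lower, and all 4 calls held in every fit without 1 array. PIP1-3 read 11.40 and 10.95 in F98902 and 9.97 and 9.88 in Cm484, 2.38-fold higher with all 4 of its probe sets called (adjusted p = 0.000736). PIP2-6 was at least 3.06-fold higher. PIP1-5 read 6.68 and 6.58 against 8.64 and 8.78, 4.21-fold lower (adjusted p = 0.000351), and pip1-2 was 1.96-fold lower (adjusted p = 0.00369). Of 12 tonoplast and other aquaporins, 2 were higher and 5 were lower, and 1 and 2 of these calls held in all 4 fits without 1 array. The called shares of the 2 groups were 57.1% and 58.3%, beside 41.4% of all annotated genes. The tonoplast channel gene TIP1-1 read 10.20 and 9.93 against 8.53 and 8.91, 2.54-fold higher (adjusted p = 0.00113). NIP2-1, which is the maize Lsi1 silicon channel, read 8.67 and 8.77 against 9.12 and 9.67, 1.60-fold lower (adjusted p = 0.0204), a call made for 1 of its 2 probe sets and lost in 3 of the 4 fits without 1 array, while its relatives NIP2-2 and NIP2-3 did not pass.

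Stress genes beyond dhn1 gave few further large differences. Of 16 kept genes of heat shock, dehydration and polyamines, 5 were higher, 4 were lower and 7 did not pass. The called share was 56.2%, beside 41.4% of all annotated genes. The dehydrin gene dhn2 read 13.46 and 13.63 in F98902 and 10.98 and 11.63 in Cm484, 4.73-fold higher with all 3 probe sets called (adjusted p = 0.000264). The catalase genes CAT3 and cat1, whose enzymes break down hydrogen peroxide, were 1.99-fold and 1.85-fold higher, and the superoxide dismutase gene sod2 was 1.84-fold lower. A second probe set of cat1 did not pass (adjusted p = 0.422). sam2 read 12.59 and 12.67 against 13.39 and 13.42, 1.70-fold lower (adjusted p = 0.000277). Of the heat shock genes other than hsp18f, hsp70-5 was higher in F98902, with a log2 difference of 0.73 (adjusted p = 0.00042) and 2 of its 3 probe sets called. HSP60-1 was lower, with a log2 difference of -0.84 (adjusted p = 0.026). Among the 4 fits without 1 array, hsp70-5 passed in all, and HSP60-1 only in that without pool 1 of F98902. The members hsp70-4, hsp101, HSP18 and hsp22 did not pass. Among 18 ribosomal protein genes, rpl30 was higher, RPS21, rps13 and rpl39 were lower, and 14 did not pass. The calls of rps13 and rpl39 were lost in 2 of the 4 fits without 1 array. The called share was 22.2%, below the 41.4% of all annotated genes. Those 18 had a median of -0.33, and apart from rpl30 and RPS21 none differed by over 0.75 log2 units on its brightest probe set. Dimmer probe sets of 2 genes counted as not passing were called. They were 1 of rps6, lower (-0.95 log2, adjusted p = 0.0199), and 1 of RPL10, higher (0.47 log2, adjusted p = 0.0264).

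**Figure D5:**
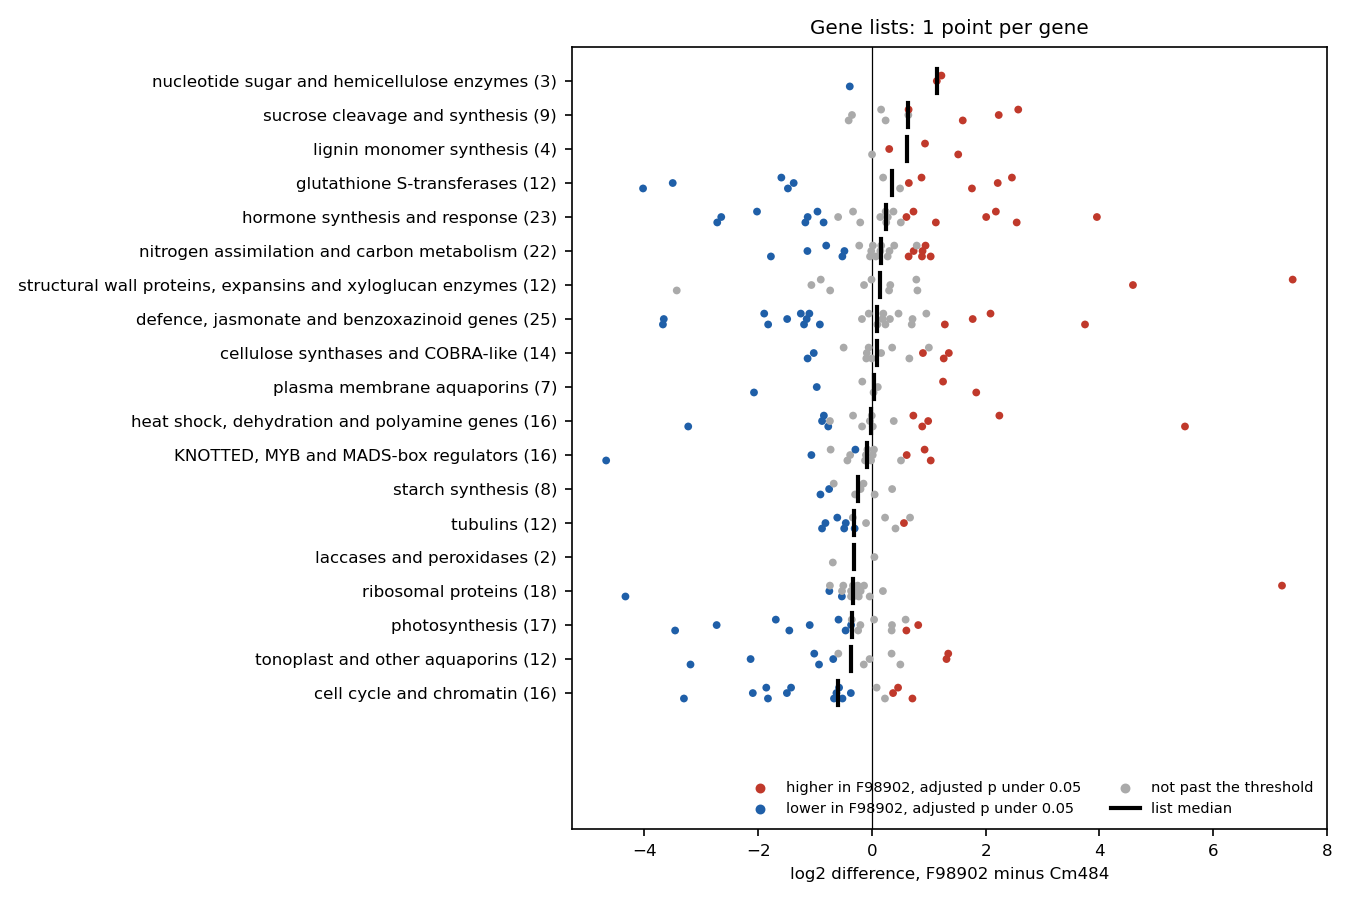
Log2 difference, F98902 minus Cm484, of every kept member of 19 gene lists, 1 point per gene, with calls in colour, list medians as black bars and the number of kept genes in brackets. Sucrose and lignin genes lie mostly right of 0, cell cycle genes mostly left of it, and single genes such as HRGP, rpl30, dhn1 and zmm24 lie far from the rest of their lists.

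Some bright genes hardly differed. Among genes at log2 10 or more in both lines, the 5 closest to 0 were CesA12, BM1, grp1, the malate dehydrogenase gene mdh4 and the MADS-box gene zmm19, with log2 differences of 0.00, 0.00, -0.01, -0.01 and 0.01. Probe sets of 1 gene did not always give the same call. Of 106 genes with several kept probe sets, 22 had all of them called one way, 42 had some called one way and some not called, 40 had none called and 2 had calls in both directions. The cystatin gene LOC542213 read 12.36 and 12.63 against 13.63 and 13.87 on one probe set (-1.25 log2) but 11.51 and 11.99 against 10.87 and 11.23 on the other (0.70 log2). The translation elongation factor gene EF1-A read 12.18 and 11.91 against 12.61 and 12.50 on one and 10.62 and 12.30 against 8.32 and 8.74 on the other, with log2 differences of -0.51 and 2.93.

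The other 3 lines place these differences. Among the 323 called genes, both F98902 arrays alone lay above all 6 arrays of the other lines for 47 genes and below them for 68, whereas Cm484 alone lay above for 38 and below for 31. Both lines lay outside on opposite sides for 16 genes and on the same side for 11, and 112 genes had neither line outside. These are counts and were not tested against each other. The other lines were also not equally near to F98902 and Cm484. Between Cm484 and F7025, 1740 of the 10560 kept probe sets were called, against 3803 to 4523 in every other pair of lines. The part of this nearness in the lower counts of Cm484 was not tested.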

How the data were processed

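Total RNA of maize stems was hybridised to the Affymetrix maize array. The deposited values are on a log2 scale and were made by the authors with GCRMA, per the submitters' processing notes; its version is not given in the sources used here, and the log2 scale was read from the values. GCRMA gives every array nearly the same spread of values, which hides any change common to all genes, and it draws dim probe sets to a floor near 2. No further normalization was applied. The number of arrays limits the precision.

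The 113 AFFX and 66 RPTR control probe sets were left out of 17734. All 10 arrays entered 1 linear model with line as the only term (limma 3.58.1, R 4.3.3, moderated variances that follow mean signal), which left 5 residual and 3.26 prior degrees of freedom, and p-values of F98902 minus Cm484 were adjusted over the 10560 kept probe sets by Benjamini-Hochberg. The code was tested on simulated data. Nothing in the labels says that the pools of a line came from separate plots, so the spread behind each p-value is that of pools and could be technical. Where a line's mean was under 4 it was set to 4 and the fold is given as "at least". Tables and figures used Python 3.11.15, pandas 2.3.3 and matplotlib 3.10.9.

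The annotation used gave 1 gene for 1452 probe sets and none for 16102. Of 1108 genes, 1060 matched a B73 gene table by gene identifier. A gene was read by its kept probe set of highest mean over the 4 arrays. Named genes were the 12 largest called differences in each direction, among genes whose arrays did not overlap between the lines. Also named were members of 19 gene lists matched by symbol or synonym, tissue markers, the 5 bright genes nearest to 0, and genes called both ways. Matches that were plainly other genes or of uncertain identity (kinesins among cell cycle genes, pyruvate dehydrogenase kinases among photosynthesis genes and the like) were dropped. Members and lists were chosen with earlier results of these data known. Lists are described by counts and medians, with no set test. Other filters, scalings, variance models, a replicate block and fits without single arrays were run as alternatives.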

Additional observations from a re-analysis of the deposited data

How the results depend on the processing

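The call count of 4068 probe sets (1984 higher, 2084 lower) rests on 2 pools a line. Fits that left out 1 of the 4 arrays called 2631 to 4333 probe sets, of which 1313 to 1963 were higher and 1318 to 2370 lower, with the fewest without pool 1 of Cm484. With only the 4 arrays in the fit, 2755 were called, 1387 higher and 1368 lower. Without the 3 arrays of least RNA, a choice made after seeing the data, 1928 were called, 1029 higher and 899 lower, and the genes with a readable name past the threshold dropped from 291 to 149. That fit holds 1 array for each of the 2 lines, which are assumed to vary like the others. The cause was not tested. The other alternatives (filters, values under 4 set to 4, quantile normalization, centred medians, no trend, array weights) called 3218 to 4123. Centring the array medians moved the median difference from -0.04 to -0.02.

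Of 137 named genes past the threshold, 88 were also called in all 4 fits without 1 array. These 137 are the called ones among the 256 genes followed across the alternatives, fewer than the 291 with a readable name. None of the 137 reversed. d3, not called, turned from 0.25 to -1.36 without pool 2 of F98902 and to -0.89 without the 3 arrays of least RNA, and was 1.86 without pool 1 of F98902, past the threshold in all 3. Of the 24 genes with the largest differences, glu1 and expA4 did not pass without the 3 arrays. With the replicate block, 4068 probe sets were called, 1999 higher and 2069 lower; the pool differences correlated across probe sets at 0.393 between F98902 and Cm484, 0.373 between F98902 and F2 and 0.285 between Cm484 and F2, the 3 lines with 20 µg of RNA in pool 2, and at 0.123 between F98902 and F7033 and -0.365 between F98902 and F7025. The pools of F98902 and Cm484 thus deviated partly together. Neither line passed 0.1 with every other line, and the labels do not say that a number marks a shared batch, so the fit without the block was kept. Of 304 recomputed list medians, 14 moved by more than the spread between pools. The photosynthesis list's median was -0.17 without pool 2 of F98902 and without the 3 arrays of least RNA. The defence list's median turned from 0.10 to -0.47 without pool 2 of F98902 and without the 3 arrays of least RNA, and the hormone list's from 0.24 to -0.03 at a filter of log2 6.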
